A study of Arabidopsis thaliana with 77 samples.

Results

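The arms of chromosomes 1 and 3 of Arabidopsis thaliana carried 835 line-specific G/C to A/T changes in 4 episuppressor lines, out of 15725 different variants on chromosomes 1 to 5 in the 5 deposited libraries. A change was taken when it read C to T or G to A on the reference strand, appeared in 1 of the 5 libraries and in an episuppressor line, had a quality score of 50 or more and lay under at least 10 reads. It also had to lie more than 3 Mb from 15 Mb of chromosome 1 or from 14 Mb of chromosome 3, the approximate centromeres. Line 2-69 held 343 of these changes, line 2-20 held 169, line 3-72 held 188 and line 3-75 held 135. The members were thus selected on quality, depth, position, base change and absence from the other libraries, and none of these is a finding here. Positions are those of the TAIR10 build.

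All libraries were made from the genomic DNA of rosette leaves of plants 4 weeks old in the Columbia ecotype. The genotype of the lines is labelled rdr1 rdr2 rdr6 ddm1, and that of the fifth library rdr1 rdr2 rdr6, with no other allele or treatment named. The RDR genes encode RNA-dependent RNA polymerases of RNA silencing, and DDM1 is a chromatin remodeller that maintains DNA methylation, mainly at transposons. Whether the leaves of a library came from 1 plant or from several is not given in the sources used here. With 1 library for each line no test between lines was possible, and intervals on shares are Wilson 95% intervals that cover counting error only. In DDM1 (AT5G66750) all 4 lines were homozygous for G26652152A (C615Y), with 7 to 23 reads for the change and 0 for the reference. In the fifth library, called by its label rdr1 rdr2 rdr6 for this reason, 9 reads carried the change and 10 did not, a heterozygous call. R269* in RDR6 (AT3G49500), on the right arm of chromosome 3, was homozygous in all 5 libraries and is therefore not line-specific.

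A new mutation is at first present on 1 of the 2 copies of a chromosome. Self-fertilisation makes it homozygous or loses it, and meiotic crossovers divide a chromosome into long blocks that are homozygous or heterozygous together. A C to T change on the reference strand is a G to A change on the opposite strand, so the kind of change read on the reference tells which strand held the altered G/C pair's cytosine. Alkylating agents such as ethyl methanesulfonate, used in plant mutant screens, mainly give G/C to A/T changes. Whether these lines were mutagenised is not given in the sources used here.

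Within homozygous blocks the changes were nearly all of 1 kind, C to T or G to A, over long stretches. The reference sequence is shown around the changes that bound the 3 places where the kind switched inside such a block. Each line gives the 29 reference bases of TAIR10.1, plus strand, with the changed base in capitals and 14 bases on each side.
Line 2-69, chr3:22170494-22170522, last G to A change (G22170508A): gaatttttatatatGtgacaaaaaaatcc
Line 2-69, chr3:22338143-22338171, first C to T change (C22338157T): cgctgctctctccgCcgtcgatttcgatc
Line 3-72, chr3:6033279-6033307, last G to A change (G6033293A): ttgtcggagcagagGctttgttcttgaac
Line 3-72, chr3:6076703-6076731, first C to T change (C6076717T): atgccatcgtggtcCaagagcaagtaaga
Line 3-75, chr1:5364857-5364885, last C to T change (C5364871T): ctcttttgtatatcCagacacagtttagc
Line 3-75, chr1:5601024-5601052, first G to A change (G5601038A): ttgtaaaaaaaataGaaatcatggatact

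Depth differed between the libraries. The median depth at all calls on chromosomes 1 to 5 was 37 reads in 2-69, 24 in 2-20, 17 in 3-72, 23 in 3-75 and 35 in the library labelled rdr1 rdr2 rdr6. Before the limits on quality and depth, 1542 calls of this kind lay on these arms, and 54.2% of them passed. The share that passed was 80.7% in 2-69, 47.5% in 2-20, 37.8% in 3-72 and 51.1% in 3-75, so lines are not ranked by their number of changes. Among calls with enough reads, 108 had a quality from 50 up to 60 and 103 a quality from 40 up to 50, and none of either set was homozygous. At a depth of 10 reads 22 calls were kept, and at a depth of 9 reads 23 were left out. By the same rule the library labelled rdr1 rdr2 rdr6 gave 1 call on these arms, a heterozygous G to A change. In the file headers the alignments of that library, 2-69 and 2-20 have names that begin alike, unlike those of 3-72 and 3-75, and the part of this in the counts was not tested.

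The lines differed in how much of the arms was homozygous. In 2-69, 117 of 343 changes were called 1/1 (34.1%, interval 29.3 to 39.3), against 53.7% of the same class of calls over chromosomes 1 to 5, which include these. In 2-20, 0 of 169 were 1/1 (0 to 2.22), against 20.3% over the genome. In 3-72, 57 of 188 were 1/1 (30.3%, 24.2 to 37.2), against 51.2%. In 3-75, 94 of 135 were 1/1 (69.6%, 61.4 to 76.8), against 74.0%. The arms of chromosomes 1 and 3 thus held fewer homozygous changes than the whole-genome share in 2-69, 2-20 and 3-72, and the interval of 3-75 included the genome's value. Changes of a block share their zygosity, so these intervals are too narrow for lines. Homozygous calls had higher quality than heterozygous ones, and the lowest quality of a 1/1 change was 68. Over calls of any quality on these arms the 1/1 share was 28.2% in 2-69, 0.843% in 2-20, 16.9% in 3-72 and 47.0% in 3-75.

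The genotypes were called from reads of the same libraries, so the read shares describe the calls and are no separate check of them. Of the 268 homozygous changes, 258 had no high-quality read for the reference base. Of the 567 heterozygous changes, 543 had the called base in 25 to 75% of the high-quality reads, and none reached 85%. The ranges overlapped slightly, as 1 homozygous change, in 2-69, had 84.2% and the highest heterozygous share, in 2-20, was 84.6%. The median share of called reads among heterozygous changes was 51.1% in 2-69, 55.6% in 2-20, 61.5% in 3-72 and 57.1% in 3-75, at median depths of 32, 21, 16 and 20 reads. The part of the quality limit in these shares was not tested.

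**Figure D1:**
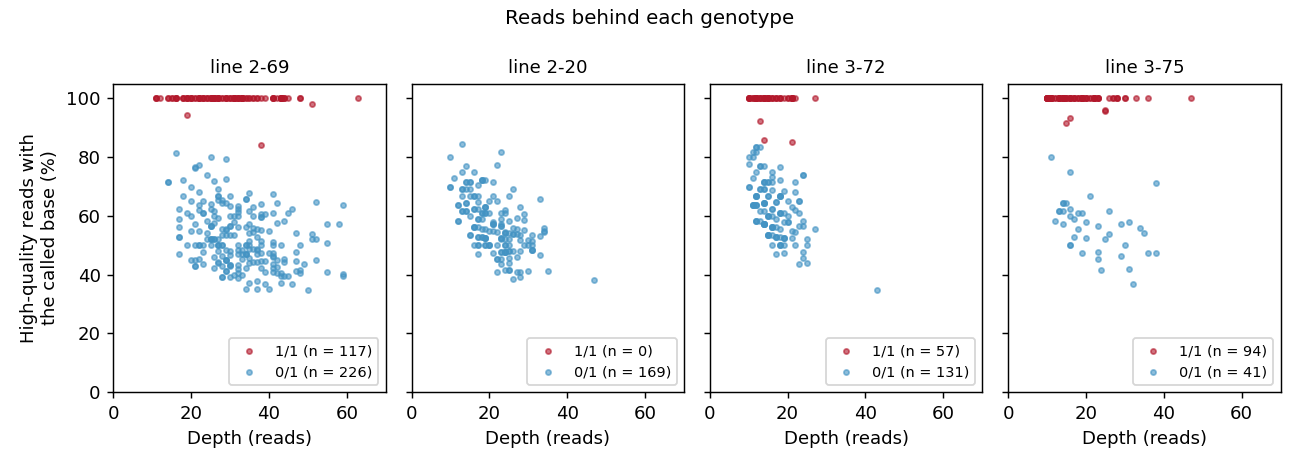
Each point is 1 line-specific change, with its raw depth in reads on the x axis and the percent of high-quality reads that carry the called base on the y axis, by line; red points were called 1/1 and blue points 0/1. Most 1/1 changes sit at 100%, the 0/1 changes stay below 85%, and 2-20 has no 1/1 change on these arms.

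Along each arm the genotypes fell into a few long blocks. A block is a stretch in which calls of 1 genotype prevail, found by counting calls of the other genotype and charging 3 such calls for each switch. The 16 pairs of line and arm gave 24 blocks and 8 breakpoints, and 10 of the 835 changes had a genotype other than that of their block. The 9 homozygous blocks held 268 changes over 51.8 Mb, and the 15 heterozygous blocks 567 changes over 104.8 Mb, measured from the first to the last change of a block. In 9 of the 16 pairs the arm was a single block.

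**Figure D2:**
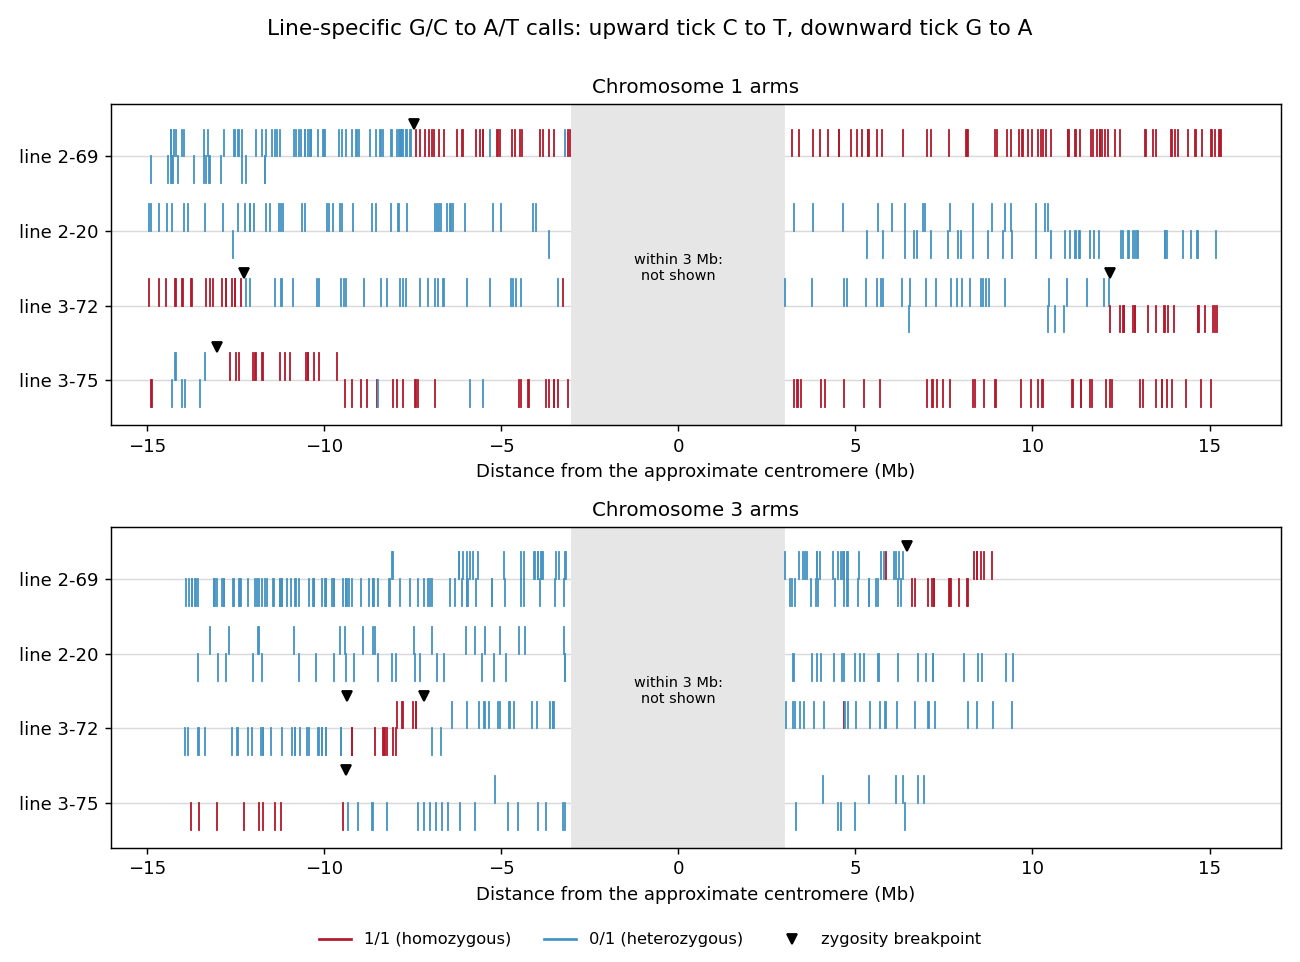
Every line-specific change on the arms of chromosomes 1 (top) and 3 (bottom) is a tick, at its distance in Mb from the approximate centromere, with 1 row per line; ticks above a row are C to T and ticks below it G to A on the reference strand, red for 1/1 and blue for 0/1. Colours and tick directions come in long stretches, and the black triangles mark the 8 breakpoints of zygosity.

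In 2-69 the right arm of chromosome 1 was homozygous throughout, with 70 of 70 changes 1/1 from position 18219129 to 30328670. The left arm of that chromosome was heterozygous in 76 of 76 changes up to position 7461122, and homozygous in 28 of 30 from position 7608262 on. The breakpoint lies in the 147 kb between them, and its inner side is a missense change in AT1G21660 (A445V), annotated as a DnaJ-domain chaperone gene. On chromosome 3 the left arm was heterozygous in 108 of 108 changes. The right arm was heterozygous up to position 20337331, in an intron of the zinc finger gene AT3G54880, and homozygous in 18 of 18 changes from position 20602507. A lone 1/1 call within the heterozygous block, C19856807T, had 32 reads for the change and 6 for the reference.

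Line 2-20 showed no breakpoint. All 48 changes of the left and 57 of the right arm of chromosome 1, and all 41 and 23 on the left and right arm of chromosome 3, were heterozygous. With 23 changes on the shortest arm, the interval allows a homozygous share of up to 14.3% there.

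Line 3-72 had 4 of the 8 breakpoints. On the left arm of chromosome 1, 19 of 19 changes were 1/1 up to position 2671883, in an untranslated region of CRT3 (AT1G08450), a calreticulin gene of protein folding. From position 2806810, in AT1G08760, 30 of 31 were 0/1. The right arm was 0/1 in 30 of 30 changes up to position 27162885 and 1/1 in 21 of 21 from position 27189013. That breakpoint had the shortest interval of the 8, 26.1 kb, between the receptor-like kinase gene AT1G72180 and AT1G72230, a gene of the cupredoxin family.

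On the left arm of chromosome 3 of the same line a homozygous block lay between heterozygous ones. It held 15 of 15 changes at 1/1 from position 4783612, in the receptor-like kinase gene SRF7 (AT3G14350), to position 6613376, in RBP47B (AT3G19130), which encodes an RNA-binding protein. The 29 changes before it and the 19 after it were all 0/1. The changes next to it were in PRA8 (AT3G13720), of the prenylated Rab acceptor family, at position 4495705 and in AT3G20180, of a copper transport protein family, at position 7043446. The right arm was 0/1 in 23 of 24 changes.

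In 3-75 nearly all of chromosome 1's arms was homozygous. The right arm was 1/1 in 44 of 44 changes, and the left arm 1/1 in 39 of 42 from position 2339370, in AT1G07590. Before that, 7 of 9 changes were 0/1, up to position 1654004 in an intron of CALS1 (AT1G05570), a callose synthase gene. The other 2, G109175A and G155875A, were the first on the arm and were 1/1 with 17 and 20 reads and no reference read. They were too few to make a block under the cost of 3 calls. On chromosome 3 the left arm was 1/1 in 9 of 9 changes up to position 4548584 and 0/1 in 20 of 20 from position 4692259, in HAOX2 (AT3G14150), a hydroxy-acid oxidase gene. The right arm had 11 changes, all 0/1, and none beyond position 20931317.

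The breakpoint of 3-75 on the left arm of chromosome 3, between positions 4548584 and 4692259, lay inside an interval of 3-72 on that arm, between 4495705 and 4783612. The direction was opposite, from 1/1 to 0/1 towards the centromere in 3-75 and from 0/1 to 1/1 in 3-72. The outer edge in 3-75 rests on 1 call, G4548584A, with 9 reads for the change and 0 for the reference. Without that call the 3-75 interval would start at 2785672, and would overlap that of 3-72 but not lie inside it. No other breakpoint intervals of different lines overlapped. The intervals between the bounding changes ran from 26.1 kb to 685 kb, the longest of them on the left arm of chromosome 1 in 3-75. The longest gap between neighbouring changes of an arm was 1.76 Mb, in the homozygous block of chromosome 3 in 3-75. Stretches between an arm's end and its nearest change were not counted, such as that from 20931317 to 23459830 on the right arm of chromosome 3 in 3-75. The median spacing ran from 74.8 kb in 2-69 to 192 kb in 3-75.

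The balance of C to T against G to A was near even over all lines and far from even on single arms. Over the 4 lines 444 changes were C to T and 391 were G to A (53.2% C to T, interval 49.8 to 56.5). Cytosine made up 49.9 to 50.1% of the G/C pairs' reference bases on each of the 4 arms. Line 2-69 had 62.1% C to T (interval 56.9 to 67.1) and line 3-72 had 65.4% (58.4 to 71.9). Line 2-20 was near even at 47.9% (40.5 to 55.4), and line 3-75 had mostly G to A changes, with 20.0% C to T (14.1 to 27.5). On single arms it ran from 0 to 100%.

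The right arm of chromosome 1 gave both extremes. All 70 changes of 2-69 there were C to T, and all 44 of 3-75 were G to A. In 3-72 that arm held 26 C to T and 25 G to A changes, the G to A changes lying mostly in its outer, homozygous block. In 2-20 it held 16 C to T and 41 G to A changes. Other arms of a single kind were the right arm of chromosome 3 in 2-20, with 23 of 23 G to A, the left arm of chromosome 1 in 3-72, with 50 of 50 C to T, and the right arm of chromosome 3 in 3-72, with 24 of 24 C to T.

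Neighbouring changes of a line were mostly of the same kind. Of 819 pairs of neighbours on an arm within a line, 692 had the same change (84.5%, interval 81.9 to 86.8). Where the changes of the 4 lines were put in order together, neighbours from different lines had the same change in 335 of 601 pairs (55.7%, 51.7 to 59.7). The intervals of these shares do not overlap, but they take pairs as independent though neighbouring pairs share a change, and so are too narrow. By line the share was 82.3% in 2-69, 72.1% in 2-20, 94.6% in 3-72 and 91.6% in 3-75. On the arms of chromosomes 2, 4 and 5 the same class of calls gave 727 of 853 pairs (85.2%, 82.7 to 87.5), so the pattern was not particular to chromosomes 1 and 3.

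Homozygous neighbours were nearly always of the same kind. Of 251 pairs in which both changes were 1/1, 248 had the same change (98.8%, 96.5 to 99.6). Of 546 pairs in which both were 0/1, 425 had the same change (77.8%, 74.2 to 81.1), with 73.6% in 2-69, 72.1% in 2-20, 94.4% in 3-72 and 72.2% in 3-75. Over the 4 lines the intervals for homozygous and heterozygous pairs do not overlap. They too are too narrow, since pairs share changes and lie in few blocks, and 2-20 gave 165 of the heterozygous pairs. Within lines, homozygous pairs had the same change in 99.1% of cases in 2-69 (95.1 to 99.8), 98.1% in 3-72 (89.9 to 99.7) and 98.9% in 3-75 (93.8 to 99.8). In 3-72 that interval overlaps the one for heterozygous pairs (88.9 to 97.3), and 2-20 had no homozygous pair.

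**Figure D3:**
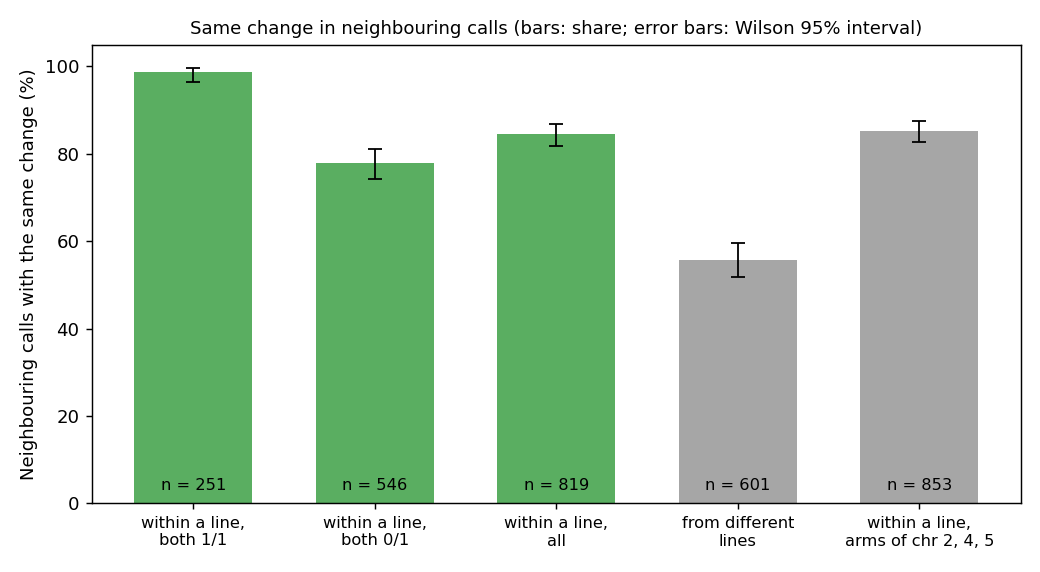
Bars give the percent of neighbouring changes on an arm that are both C to T or both G to A, with Wilson 95% intervals and the number of pairs in each bar. Homozygous neighbours reach 98.8%, heterozygous ones 77.8%, neighbours taken from different lines 55.7%, and the arms of chromosomes 2, 4 and 5 85.2%.

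Runs of at least 8 neighbouring changes of the same kind were then marked, a length chosen after the pattern had been seen. The 20 runs, 10 of C to T and 10 of G to A, held 604 of the 835 changes (72.3%), and 15 stretches between them held the other 231. These are called mixed here, though short ones can be of 1 kind. On the arms of chromosomes 2, 4 and 5, 70.2% of the calls lay in such runs. The largest run by number held 74 C to T changes on the left arm of chromosome 1 in 2-69, from position 3354296 to the inner end of the arm. The longest covered 12.1 Mb, the whole right arm of chromosome 1 in the same line. Runs held 94.4% of the homozygous changes (91.0 to 96.6) and 61.9% of the heterozygous ones (57.8 to 65.8).

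The mixed stretches were mostly heterozygous, with 216 of their 231 changes 0/1. In 2-20 the whole left arm of chromosome 3 was mixed, with 19 C to T and 22 G to A changes over 10.3 Mb, and so was the right arm of chromosome 1 up to position 25442329, with 16 and 14. Beyond that point 27 of 27 changes were G to A, still heterozygous, so the kind of change switched there without a breakpoint of zygosity. In 2-69 the outer 3.23 Mb of the left arm of chromosome 1 held 16 of each kind, and the next 74 changes were all C to T. On the left arm of chromosome 3 in that line, 63 G to A changes in a row were followed by 2 C to T changes, a further 9 G to A changes and then, nearest the centromere, a mixed stretch of 21 C to T and 13 G to A changes. The number of changes in mixed stretches was 115 in 2-69, 73 in 2-20, 17 in 3-72 and 26 in 3-75, so runs took 66.5%, 56.8%, 91.0% and 80.7% of each line.

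Within homozygous blocks the kind switched at 3 places, those whose sequences are shown above. In 2-69 the outer block of chromosome 3 held 12 G to A changes and then 6 C to T changes, with 168 kb between them. The first C to T change fell in AT3G60440 (A113V), of the phosphoglycerate mutase family, and had 43 reads for the change and 0 for the reference. In 3-72 the block on the left arm of chromosome 3 held 9 G to A and then 6 C to T changes. The switch lies in the 43.4 kb between a missense change in the leucine-rich repeat gene AT3G17640 (A301T) and a stop codon in the protein kinase gene AT3G17750 (Q780*). In 3-75 the left arm of chromosome 1 went from 17 C to T changes to 25 G to A changes between introns of CYCA2;3 (AT1G15570), an A-type cyclin gene, and ATCHX1 (AT1G16380), a cation/proton exchanger gene, 236 kb apart. The bounding changes of the 3 switches had 8 to 43 reads and no reference read.

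Breakpoints of zygosity were set against the kind of change on either side, over up to 10 changes per side. At 3 of the 8 breakpoints all changes on both sides were of 1 kind. Both sides were C to T at the one on chromosome 1 in 2-69 and at the one on the left arm of chromosome 1 in 3-72, and both were G to A at the one on chromosome 3 in 3-75. At 3 others a mixed side met a side of 1 kind. On the right arm of chromosome 3 in 2-69 and on the right arm of chromosome 1 in 3-72, 7 C to T and 3 G to A changes of a heterozygous block were followed by 10 homozygous G to A changes. On the left arm of chromosome 1 in 3-75, 3 C to T and 6 G to A changes were followed by 10 C to T. The remaining 2 bound the homozygous block of 3-72 on chromosome 3, with 10 G to A before and 9 G to A and 1 C to T after its outer end, and 6 C to T and 4 G to A before and 8 C to T and 2 G to A after its inner end. The reference sequences that bound the 2 breakpoints where a mixed end of a heterozygous block met homozygous G to A changes, again plus strand with the changed base in capitals, are as follows.
Line 2-69, chr3:20337317-20337345, last heterozygous change (C20337331T): ttagaaaacattgcCttctttgattcttt
Line 2-69, chr3:20602493-20602521, first homozygous change (G20602507A): actagaggttatcgGgggttgatcatgtt
Line 3-72, chr1:27162871-27162899, last heterozygous change (C27162885T): gtatttcttggagaCatctttctctggaa
Line 3-72, chr1:27188999-27189027, first homozygous change (G27189013A): gtccttctgcttcgGccacggccgtgttg

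Calls that the rule had left out were compared with these blocks and runs, since they had no part in defining them. On the arms 707 calls of the same base changes were under the limits of quality or depth, and 484 of them lay inside a run. Of these, 435 had the same change as the run around them (89.9%, interval 86.9 to 92.3). The share was 100% for the 40 calls with quality of 50 or more and fewer than 10 reads, 94.7% of 206 with quality from 20 up to 50 and at least 10 reads, and 80.4% of 189 with quality under 20. Of 54 homozygous calls inside runs, 52 had the run's change. In mixed stretches, 81 of 170 such calls were C to T.

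Of the 707 calls under the limits 63 were 1/1, so most were heterozygous before blocks were considered. Their match with heterozygous blocks is therefore no check of those blocks. Inside homozygous blocks 46 of 103 calls under the limits were 1/1 (44.7%, 35.4 to 54.3), and inside heterozygous blocks 13 of 564 (2.30%, 1.35 to 3.90). The share inside homozygous blocks differed by line, with 2 of 11 in 2-69, 16 of 20 in 3-72 and 28 of 72 in 3-75. Line-specific changes other than G/C to A/T, of the same quality and depth, numbered 18 on these arms. Of the 5 inside homozygous blocks 5 were 1/1, and of the 8 inside heterozygous blocks 1 was.

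The density of changes was compared between stretches of a line. In 2-69, homozygous runs held 6.09 changes per Mb (exact Poisson interval 4.98 to 7.38), heterozygous runs 9.90 (8.16 to 11.9) and heterozygous mixed stretches 11.04 (9.01 to 13.4). In 3-72, homozygous runs held 6.70 per Mb (4.90 to 8.93) and heterozygous runs 4.06 (3.34 to 4.88). Among the changes that passed the limits, homozygous stretches were thus sparser than heterozygous ones in 2-69 and denser in 3-72. The limits kept 57 of 84 homozygous and 131 of 413 heterozygous calls in 3-72, and 117 of 120 and 226 of 305 in 2-69. Over whole blocks, homozygous ones held 7.38 changes per Mb in 3-72 and heterozygous ones 4.11. With the calls under the limits counted too, the direction in 3-72 turned, with 10.1 calls per Mb in homozygous and 12.5 in heterozygous blocks. In 3-75 a small difference also turned, from 3.70 and 3.56 changes per Mb to 6.51 and 7.64 calls. In 2-69 it did not, with 6.90 and 13.6. In 2-20, heterozygous runs and mixed stretches held 4.30 (3.47 to 5.27) and 3.94 (3.06 to 4.98), and in 3-75 homozygous runs held 3.81 (3.05 to 4.70) and heterozygous ones 3.31 (1.76 to 5.67), intervals that overlap. Clustered changes were rare. Only 4 pairs of neighbours lay within 1000 bp of each other, the closest 30 bp apart.

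The bases beside the changed cytosine, read on the strand that holds it, differed from those of all cytosines on both strands of the arms. A followed the changed C in 14.9% of the changes (12.6 to 17.4), against 35.4% of all such cytosines. C followed it in 26.8% (23.9 to 29.9) against 18.5%, T in 40.4% (37.1 to 43.7) against 33.1%, and G in 18.0% (15.5 to 20.7) against 13.01%. A was also less frequent before the changed C than before all such cytosines, at 20.5% (17.9 to 23.3) against 29.0%. T came before it in 41.4% (38.1 to 44.8) against 35.7%. Each line on its own had fewer changes followed by A than the reference, from 10.7% in 2-20 to 16.3% in 3-75. Which of the reference cytosines the reads could cover was not tested.

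**Figure D4:**
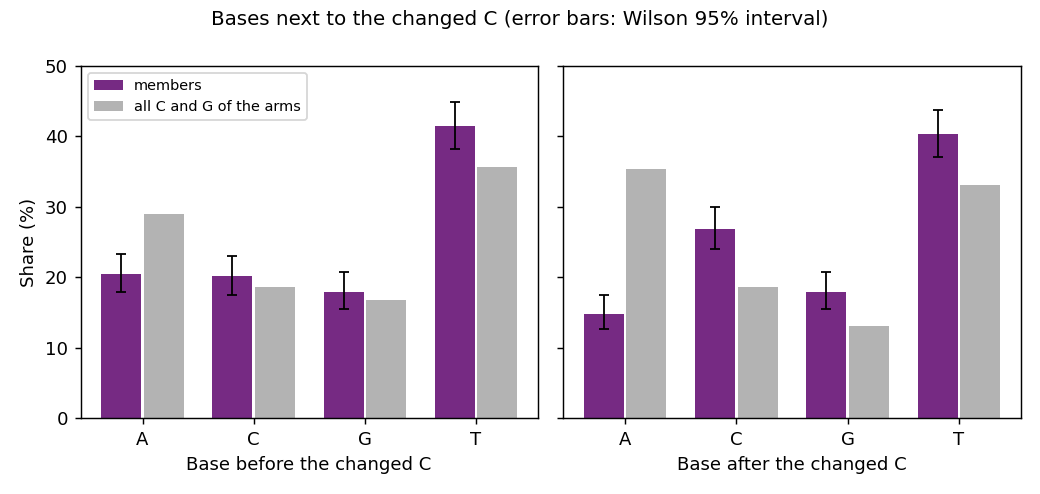
Purple bars give the percent of the 835 changes with each base before (left) and after (right) the changed C, read on the strand that holds it, with Wilson 95% intervals; grey bars give the same percent over all C and G of the 4 arms. A is less frequent beside the changed C than in the reference on both sides, 14.9% against 35.4% after it and 20.5% against 29.0% before it.

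Coding sequence held 403 of the changes (48.3%, 44.9 to 51.7), against 41.7% of all G and C bases of the arms. Intergenic sequence held 174 (20.8%, 18.2 to 23.7) against 26.5%, untranslated regions 61 (7.31%, 5.73 to 9.27) against 10.4%, and introns 146 (17.5%, 15.1 to 20.2) against 17.2%. Other annotated genes, without a coding sequence, held 51 (6.11%, 4.68 to 7.94) against 4.06%. The part of read coverage and of the limits on quality and depth in these differences was not tested. Of the 610 changes inside protein-coding genes, 287 were C to T on the gene's sense strand and 323 G to A (47.0% C to T, 43.1 to 51.0).

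Protein-altering changes numbered 294 in 286 genes, of which 271 were missense, 17 stop-gained and 6 in splice sites, beside 115 synonymous changes. They made up 31.7% of the homozygous changes (26.4 to 37.5) and 36.9% of the heterozygous ones (33.0 to 40.9), intervals that overlap. The ratio of missense to synonymous changes was 2.33 among homozygous and 2.37 among heterozygous changes. By line, 110 changes altered a protein in 2-69, 63 in 2-20, 71 in 3-72 and 50 in 3-75. Homozygous ones numbered 31, 0, 23 and 31 in the same order.

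Of the 23 stop-gained and splice-site changes, 8 were homozygous, beside 268 of all 835 changes (32.1%). The 8 lay in homozygous blocks described above, but those blocks are defined by such 1/1 calls. In 2-69 the right arm of chromosome 1 held 3 of the 8. They were Q133* in the glutaredoxin gene AT1G64500, with 40 reads for the change, W221* in the lectin kinase gene AT1G67520, with 48, and a donor change of intron 7 in SVL2 (AT1G66970), with 33. In 3-72 they were W429* in HCAR (AT1G04620), which encodes a reductase of chlorophyll b breakdown, with 11 reads, and Q780* in AT3G17750, with 17. In 3-75 all 3 lay on chromosome 1. They were W74* in the ribonuclease T2 gene AT1G14220, with 10 reads, W388* in the signal peptide peptidase gene SPPL2 (AT1G63690), with 22, and an acceptor change of intron 10 in AT1G64430, with 13. All 8 had 0 reads for the reference base. The reference sequences at the 6 stop codons among them show which base changed, in capitals on the plus strand.
AT1G64500 in 2-69, chr1:23953652-23953680, gene on the plus strand: gaagcatcgccgcgCaaatcccgacgaca
AT1G67520 in 2-69, chr1:25305202-25305230, gene on the minus strand: caaagcccgctactCcaatacatgtttcc
HCAR in 3-72, chr1:1283065-1283093, gene on the minus strand: tacctttgctttccCcatttgcggtttac
AT3G17750 in 3-72, chr3:6076703-6076731, gene on the plus strand: atgccatcgtggtcCaagagcaagtaaga
AT1G14220 in 3-75, chr1:4859261-4859289, gene on the minus strand: tcacaatttgatggCcatgaaccaccgtt
SPPL2 in 3-75, chr1:23621198-23621226, gene on the plus strand: tacgatatcttctgGgtgtttgtctccaa

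The other 15 were heterozygous. In 2-69 they included a donor change of intron 9 in ALB1 (AT1G08520), which encodes a subunit of the magnesium chelatase of chlorophyll synthesis, with 12 of 29 reads. Q63* in NFXL1 (AT1G10170), a zinc finger gene, had a quality of 50, at the limit. That line also carried W396* in AT1G17450, annotated as a subunit of the transcription factor TFIIIC, W14* in the methyltransferase gene AT3G17365, W119* in the F-box gene AT3G22350 and an acceptor change of intron 2 in AT3G26340. In 2-20, W230* in the kinase gene AT1G11390 and a donor change of intron 3 in AT1G30860 were C to T changes of the long run on the left arm of chromosome 1. R117* in GATA15 (AT3G06740), a GATA transcription factor gene, lay in the mixed left arm of chromosome 3. Q57* in the ribosomal protein gene AT3G62870 was part of the G to A run on the right arm, with 18 of 22 reads.

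In 3-72, the heterozygous stops W127* in AT3G06160, Q207* in SGT (AT3G07020), a sterol glycosyltransferase gene, and Q220* in AT3G12440 all lay in the G to A run of chromosome 3. An acceptor change of intron 4 in PHYLLO (AT1G68890), a gene of phylloquinone synthesis, lay in the mixed stretch of chromosome 1. The heterozygous stop of 3-75 was W148* in CYP705A28 (AT3G20935), a cytochrome P450 gene.

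Homozygous missense changes with the best quality in genes with a symbol were, in 2-69, R4H in RRA1 (AT1G75120), an arabinosyltransferase gene, and P767S in THO2 (AT1G24706), a subunit of the THO complex of mRNA export. They also included D269N in CLPP3 (AT1G66670), a subunit of a chloroplast protease, P722S in the exoribonuclease gene XRN4 (AT1G54490), which acts in mRNA decay, and R238K in CUL3B (AT1G69670), a cullin of ubiquitin ligases. All 5 were C to T on the reference strand and had 32 to 41 reads with no reference read. CLV2 (AT1G65380), a receptor-like protein gene of meristem size control, carried S281F at the same quality of 170 as XRN4 and CUL3B, with fewer reads for the change, 28. In 3-72 they were H33Y in MEF3 (AT1G06140), a gene of mitochondrial RNA editing, G832S in TRM4 (AT1G74160), annotated as a LONGIFOLIA protein, A377T in LAP6 (AT1G02050), a polyketide synthase gene of the pollen wall, P256L in AAE7 (AT3G16910), an acyl-activating enzyme gene, and S61L in ETP2 (AT3G18910), an F-box gene of ethylene signalling. The reads for these numbered 15 to 20.

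In 3-75 the corresponding 5 were all G to A on chromosome 1. They were P192L in CPSF30 (AT1G30460), a factor of mRNA 3′ end formation, T319I in ASHH1 (AT1G76710), a SET domain gene, and P175S in PREP2 (AT1G49630), a presequence protease gene. The others were L624F in PTAC2 (AT1G74850), a gene of plastid transcription, and G260D in SULTR1;2 (AT1G78000), a root sulfate transporter gene. They had 19 to 24 reads and no reference read. Line 2-20 had no homozygous change on these arms.

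Genes altered in more than 1 line numbered 7, and each was altered in 2 lines at different positions. SPI (AT1G03060), which encodes a BEACH domain protein, carried S275F in 2-69 and A704T in 2-20, both heterozygous. AT1G03370 carried A777V in 2-69, heterozygous, and L97F in 3-72, homozygous. AT3G56840, an oxidoreductase gene, carried D398N in 2-69, homozygous, and R315C in 3-72, heterozygous. In AT1G08760, the gene at a breakpoint of 3-72, that line had A347V and 2-69 had E146K. The others were the receptor kinase gene AT1G11300 (A144V in 2-20 and T305I in 3-72), AT3G28770 (V2012M in 2-20 and D226N in 3-75) and the extensin-like gene AT3G54580 (P504S in 2-69 and P355S in 2-20). None was homozygous in both lines. Over all 11444 protein-coding genes of the arms, 2.50% had a protein-altering change in any line. The proteins of the 7 genes ran from 465 residues in AT3G56840 to 3601 in SPI. How many genes would be altered in more than 1 line through gene length and the number of changes alone was not tested. AT3G22160 alone had a pair of altering changes in 1 line, A175T and V146M in 2-69, both heterozygous and 87 bp apart. Proteins with repeated sequence, as extensins have, can draw reads from other genes, and the part of this was not tested.

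Between the arms, within 3 Mb of the centromeres, the same class of calls showed how far some stretches went on. In 2-20, 0 of 25 such calls on chromosome 1 and 0 of 27 on chromosome 3 were 1/1, as on the arms. In 3-75, 24 of 27 on chromosome 1 were 1/1 and all 27 were G to A, like the 25 changes of the run on its left and the 44 on its right. In 2-69, 14 of 62 on chromosome 1 were 1/1, although the blocks next to them on both arms were homozygous. On chromosome 3 of that line 47 of 75 were 1/1, although the blocks next to them on both arms were heterozygous.

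In 4 lists of genes with roles in silencing, chromatin and chromosome behaviour, no gene on these arms had a protein-altering change. Over all 11444 protein-coding genes of the arms the share with such a change was 2.50%, and nothing is read from a count of 0 in lists of this size. By symbol 31 of 34, 25 of 25, 20 of 25 and 22 of 23 genes of the lists were matched, and the others were not analysed. The matched genes on the arms were 14 of RNA silencing, 10 of DNA methylation and chromatin, 7 of centromere, kinetochore and cohesin, and 14 of meiosis. Chromatin genes outside the lists did carry missense changes, and the following are examples, not a full count. SUVR1 (AT1G04050), a SET domain gene, had G645R in 2-20, and MBD9 (AT3G01460), a methyl-CpG-binding domain gene, had G1685R in 2-69, both heterozygous. The SET domain gene ASHH1, named above, had T319I in 3-75, homozygous with 20 reads for the change and 0 for the reference. In the listed genes 3 other changes were found. AGO3 (AT1G31290), an Argonaute gene, had the synonymous change G36G, homozygous in 2-69 with 17 of 18 reads. MOM (AT1G08060), a gene of transcriptional silencing, had an intron change in 2-69 with 18 of 40 reads, and VIM1 (AT1G57820), which encodes a methylcytosine-binding protein, had an intron change in 2-20 with 9 of 16 reads.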

How the data were processed

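The labels describe pairs of 101-nt reads from genomic DNA. The deposited files, 1 for each library, hold single-base calls (VCF 4.1, samtools 0.1.19-44428cd, per the file headers), and TAIR10, Bowtie, SAMtools and Bismark are named in the submitters' processing notes, without roles. No filter on the calls is recorded in the labels or headers. The quality score of each call, phred-scaled per the file headers, its depth, its reads per base and its genotype are the values the authors deposited. Only called sites are listed, and an unlisted site may be uncovered.

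Every reference base on chromosomes 1 to 5 matched RefSeq's TAIR10.1 (6724 to 7329 calls per library), from which the printed sequences and annotations come. Effects were read on each gene's longest coding sequence, with splice sites taken as the first and last 2 bases of an intron. Blocks were found by dynamic programming on arms with at least 6 changes. Named genes are those with a stop-gained or splice-site change, those altered in 2 or more lines, up to 5 per line with homozygous missense changes and a symbol, by quality and, where tied, by reads for the change, and those at breakpoints. The genes at the 3 switches of kind, AT3G22160, CLV2, SUVR1, MBD9, AGO3, MOM and VIM1 were chosen after their values were seen, as were the run length of 8 and the comparison with calls under the limits. The members, lists and measures were chosen with earlier results of these data known. No test between lines was made, with 1 library per line. The software was Python 3.11.15 with Biopython 1.88, scipy 1.17.1, numpy 2.4.6 and matplotlib 3.10.9, and the scripts were tested on simulated data.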

Additional observations from a re-analysis of the deposited data

How the results depend on the processing

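Of 68 values under alternative settings, 57 stayed within the interval of the reported share or within 1.5 times the reported count. With quality of 100 or more, 308 changes were left, 115 of them protein-altering, and 2 breakpoints. The homozygous share was then 70.3% in 2-69, 98.2% in 3-72 and 97.6% in 3-75, and neighbours had the same change in 92.2% of pairs. Heterozygous calls had lower quality, so this limit leaves few of them, and homozygous shares therefore depend on it. With depth of 20 reads or more, 496 changes, 195 of them protein-altering, and 6 breakpoints were left, and the homozygous share of 3-75 was 58.8%. Among homozygous changes alone, 98.1% of neighbours had the same change. Zygosity from reads, which reuses the reads of each call, and other arm boundaries left 8 breakpoints, and a switch cost of 5 calls left 7. Sharing by position and the removal of clusters took out none of the 835 changes. Their values, counted among those that stayed, could therefore not differ. Runs of at least 6 and 12 changes, chosen after the data were seen, held 628 and 577 changes. No paired analysis was possible because each line has 1 library. The limits on quality and depth together kept 74.1% of the heterozygous calls in 2-69, 47.9% in 2-20, 31.7% in 3-72 and 29.3% in 3-75.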
